A study of Mus musculus with 11 samples.

Results

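Adventitia taken outside the lesions of Apoe-deficient mice was compared with adventitia of wild-type mice, on 4 and 3 Affymetrix arrays of the 11 in the series. The members were chosen by array title: 4 arrays titled as apoE adventitia and 3 titled as wild-type PNS adventitia, with every probe set that is not a control. The other 4 arrays hold Apoe-deficient adventitia with artery tertiary lymphoid organs (ATLO, lymphocyte aggregates that form beside arterial lesions) and entered the filter and the estimate of the spread; their changes are given once, at the end. All mice were male, 78 weeks old and on chow, and all tissue was adventitia of the abdominal aorta that was cut from frozen sections with a laser and taken up in Trizol. The Apoe-deficient mice were of the strain B6.129P2-Apoe tm1Unc/J, in which Apoe is disrupted in every cell, and the wild-type mice were labelled C57BL. Each outside-lesion sample pooled 200 sections of 10 micrometres from aortas removed with the paraaortal lymph nodes and fat. The tissue label of that group says outside the lesion area, whereas the text on the design speaks of mice without lesions.

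Genotype was not the only difference between the groups. For the Apoe-deficient samples RNA was purified by a phenol-chloroform step followed by the RNeasy Micro kit, and in vitro transcription ran for 68 h. For the wild-type samples the RNeasy Lipid Tissue kit was used and in vitro transcription ran for 24 h. The wild-type titles carry the letters PNS, which no label explains. Genotype, strain, purification, amplification time and whatever PNS stands for change together, so they cannot be told apart in any difference below. Separate animals are not stated for the arrays within a group, and the p-values therefore measure the spread between these arrays, which may be technical. Because tissue pieces and not single cells were measured, fewer cells of a type and less RNA per cell cannot be told apart.

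The adventitia is the outermost coat of an artery, made of fibroblasts and collagen with small vessels, nerve bundles and resident immune cells, and it borders on perivascular fat that is brown-like or white depending on the place along the aorta. Apolipoprotein E is a ligand with which lipoprotein remnants are cleared from blood by the liver, and macrophages and adipocytes make it too. Mice without it accumulate remnants in plasma and develop atherosclerosis with age.

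Apoe was read by 1 tested probe set. Its signals were 59.8, 180, 45.9 and 155 on the outside-lesion arrays and 12118, 11969 and 13164 on the wild-type arrays, so all 7 arrays matched their genotype label. The log2 change was -7.05 ± 0.41 (133-fold lower; standard error from limma; limma adjusted p = 2.15e-06). The tissue label was checked against 8 fibroblast genes, Pdgfra, Dpt, Lum, Dcn, Col1a1, Col3a1, Pi16 and Serpinf1. The proteoglycan gene Dcn read at least 12314 on every one of the 7 arrays and Lum, the weakest on any of them, at least 618, which is above 77.7% of all probe sets. Summed signals of other cell types were far from 0: the 20 white adipocyte genes summed to between 153280 and 387420, and the 21 smooth muscle genes to between 32680 and 104703. T cell genes summed to between 2659 and 4095 over 20 genes, and Cd4 and Lef1 were at the floor of 35.1, the lowest signal used here, on all 7 arrays.

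Of 14988 tested probe sets, 258 were called higher outside the lesion and 231 lower, by limma with Benjamini-Hochberg adjusted p under 0.05, which is 1.72% and 1.54% of those tested. Counted as genes, each by its probe set with the highest mean, 279 of 9055 were called (3.08%), of which 127 rose (1.4% of those tested) and 152 fell (1.68%). The median log2 change over these genes was -0.12, and 38.3% of them were above 0. Calls depended on single arrays. Without outside-lesion replicate 1, 2, 3 or 4, the count of called probe sets was 203, 886, 164 or 112, and without wild-type replicate 1, 2 or 3 it was 106, 21 or 27. Setting equal array medians raised the median change over all probe sets by 0.17 and gave 557 higher and 81 lower calls (87.3% higher against 52.8% with the deposited scaling), and quantile normalization gave 315 and 149 (67.9% higher). Every call count below is relative to the deposited scaling. Arrays correlated at 0.952 to 0.970 (Pearson, across all non-control probe sets) among the outside-lesion arrays, at 0.961 to 0.967 among the wild-type arrays and at 0.936 to 0.957 between the groups.

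Among the genes with the largest rises, the leading one was a kappa light chain variable segment, and several others belong to mitochondria and energy metabolism. Igkv8-30 read 21300.2, 32872, 27554 and 36042 outside the lesion against 2572, 3646 and 1916 in wild type, a log2 change of 3.46 ± 0.43 (11-fold higher, limma adjusted p = 0.00336). No array of one group reached the range of the other. Of 41 tested immunoglobulin probe sets, which partly share sequences, 4 were called higher (1.72% of all probe sets were) and 0 lower, with a median log2 change of 0.97 and a range from -1.38 to 3.46; Igkv8-30 was the highest of them. Rgcc, a regulator of the cell cycle that responds to complement, read 19756, 15308, 15227 and 15856 against 6464, 3952 and 4049 (log2 change 1.81 ± 0.21, adjusted p = 0.00254).

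Mdh1, the cytosolic malate dehydrogenase that moves reducing equivalents towards mitochondria, read 13834, 14064, 13851 and 16063 outside the lesion against 6278, 4158 and 4186 in wild type (log2 change 1.59 ± 0.19, limma adjusted p = 0.00269). Hadhb, the beta subunit of the mitochondrial trifunctional protein of fatty acid oxidation, read 29042, 12322, 22885 and 24823 against 7593, 5834 and 7429.7 (log2 change 1.62 ± 0.27, adjusted p = 0.0149). In both of these probe sets the lowest outside-lesion array was above the highest wild-type array. Atp5md, a small subunit of the mitochondrial ATP synthase, read 10327, 5211, 12148 and 9843 against 2689, 2129 and 3770 (log2 change 1.69 ± 0.27, adjusted p = 0.0148). Slc25a26, which carries S-adenosylmethionine into mitochondria, read between 178 and 328 against 36.3 to 109 (log2 change 2.03 ± 0.51, adjusted p = 0.0483). Its other probe set changed by 0.31 with overlapping groups and was not called (limma adjusted p = 0.666).

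The remaining rises were in genes of varied function. Ubxn1, an adaptor of the p97 segregase, read 1557, 1635, 1269 and 1259 against 508, 484 and 553 (log2 change 1.47 ± 0.19, limma adjusted p = 0.00344). Zfp503, a zinc finger repressor, read between 834 and 2011 against 280.4 to 478 (log2 change 1.53). Weakly expressed genes completed the group: Gga1, a Golgi sorting adaptor (log2 change 2.18), Ptpn23, an endosomal sorting protein (2.09), Myo5c, a class V myosin (1.67), and Mapre3, which binds microtubule ends (1.63). In wild type Ptpn23 and Mapre3 lay at the floor on 2 of 3 arrays and Gga1 on 1, which understates their folds. Igkv8-30, Mdh1, Rgcc and Ubxn1 stayed called whichever array was left out. Leaving out wild-type replicate 2 ended the calls of the other 8 (highest adjusted p of any left-out array: 0.0627 for Atp5md, 0.0665 for Hadhb, 0.0605 for Ptpn23, 0.0993 for Gga1, 0.0993 for Myo5c, 0.106 for Mapre3, 0.131 for Zfp503 and 0.171 for Slc25a26), and leaving out wild-type replicate 3 ended all of these but Atp5md. The calls of Gga1, Myo5c, Mapre3, Zfp503 and Slc25a26 also ended without outside-lesion replicate 1 or 3, and those of Gga1, Myo5c, Zfp503 and Slc25a26 without wild-type replicate 1.

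**Figure D1:**
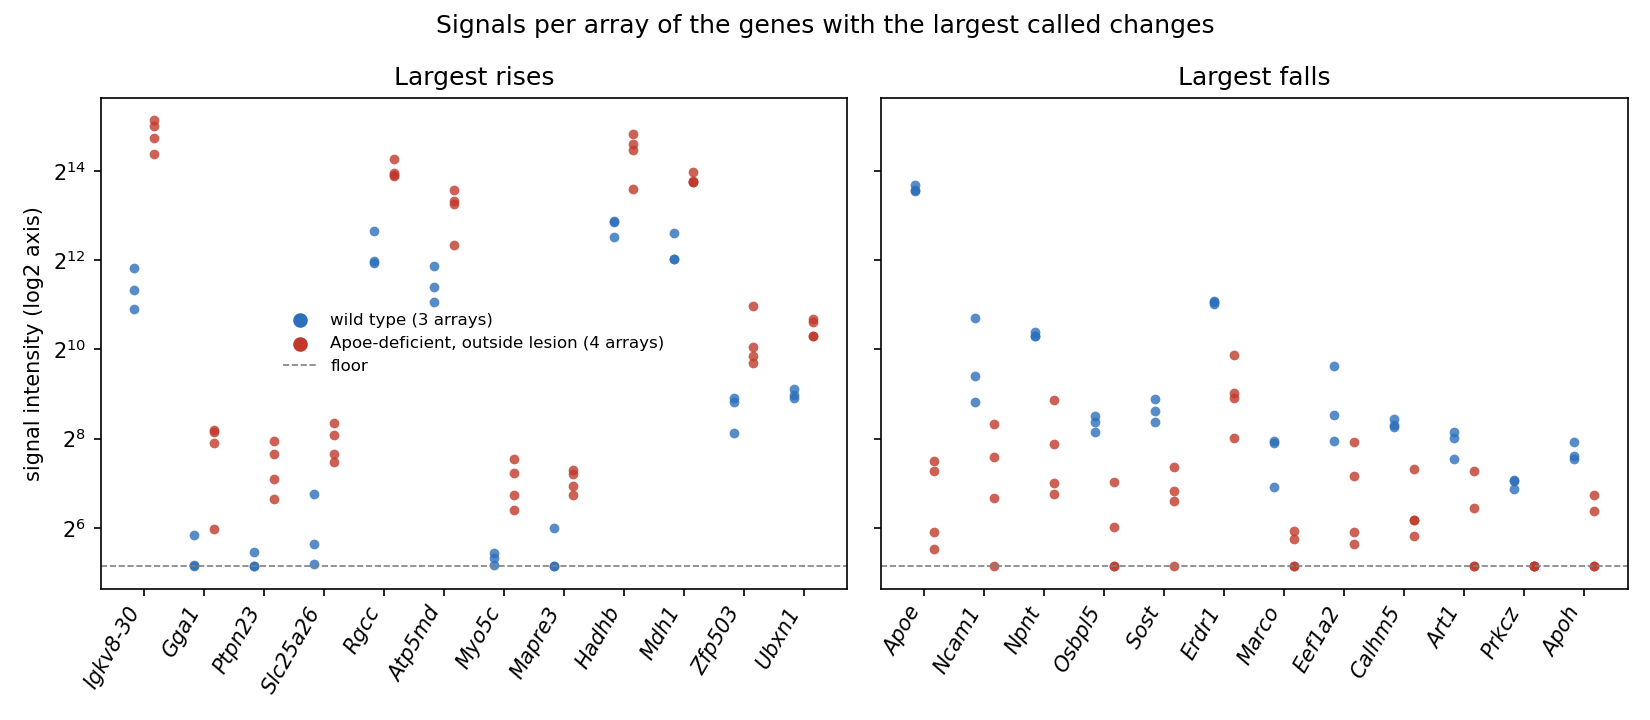
Signal on each array (log2 axis, floor at 35.1 drawn dashed) of the 12 genes with the largest rises and the 12 with the largest falls, wild type in blue (3 arrays) and outside lesion in red (4 arrays). Apoe separates furthest, from 11969 or more in wild type to 180 or less outside the lesion, and Prkcz lies at the floor in the whole outside-lesion group.

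The falls, after Apoe, were in genes of varied function, among them a matrix protein, a secreted Wnt antagonist and an adhesion molecule. Npnt, nephronectin, a matrix ligand of integrin alpha 8 beta 1, read 467, 236, 129 and 108 outside the lesion against 1263, 1267 and 1346 in wild type (log2 change -2.71 ± 0.48, limma adjusted p = 0.0177). Sost, sclerostin, which blocks Wnt signals at their co-receptors, read 165, 97.2, 15.8 and 114 against 471, 396 and 329 (log2 change -2.14 ± 0.48, adjusted p = 0.0343). Ncam1, the neural cell adhesion molecule of neurons and Schwann cells, read 193, 18.5, 102 and 320.0 against 1670.0, 683 and 456 (log2 change -2.72 ± 0.64, adjusted p = 0.0392). The groups did not overlap in these 3 probe sets. Other probe sets of Npnt changed by -1.59 and -0.60 and that of Ncam1 by -1.26, none called (limma adjusted p = 0.0603, 0.243 and 0.148). In the other Ncam1 probe set the groups overlapped.

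Erdr1 read 520, 482, 258 and 939 against 2188, 2151 and 2081 (log2 change -2.11 ± 0.36, limma adjusted p = 0.0165). Osbpl5, a lipid transfer protein of the oxysterol-binding family, fell by 2.51 on the log2 scale, and Calhm5, of a family of ion channel proteins, had a log2 change of -1.96. Marco, a scavenger receptor of macrophages, read 121 to 248 in wild type and at most 60.6 outside the lesion (log2 change -2.11). Eef1a2, the translation elongation factor of muscle and neurons, read 245 to 787 in wild type and 49.8 to 243 outside it, so that the groups were next to each other (log2 change -2.04, adjusted p = 0.0489). Art1, an ADP-ribosyltransferase, fell by 1.90, with an adjusted p just under the threshold of 0.05, and Apoh, a plasma glycoprotein that binds phospholipids, by 1.85. Prkcz, an atypical protein kinase C, read 117 to 135 in wild type and lay at the floor in the outside-lesion group throughout. It was thus at least 3.65-fold lower (limma adjusted p = 0.0311). The floor left no spread among its outside-lesion values, so that p-value rests on the spread in the other groups. Its probe set also passed the filter through arrays of those groups alone.

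Single arrays decided most of these calls. Apoe was called whichever array was left out (highest adjusted p = 5.76e-05). Wild-type replicates 2 and 3 each ended the other 11, with highest adjusted p-values between 0.0605 (Osbpl5) and 0.169 (Eef1a2). Wild-type replicate 1 ended 8 of the 11, all but Calhm5, Erdr1 and Osbpl5, of which none was lost without an outside-lesion array. Those of Sost, Ncam1, Marco, Eef1a2, Art1, Prkcz and Apoh were each also lost without at least 1 outside-lesion array.

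In the gene lists below, each gene was counted by its tested probe set with the highest mean. The apolipoprotein and cholesterol efflux list had 15 tested genes of 24, of which 2 were called lower (13.3% against 1.68% of all genes). Apoe, the disrupted gene itself, was among these 2, so that share is not a result about the list. Besides Apoe its chromosomal neighbour Apoc1, an inhibitor of lipoprotein lipase, was called, with 1309, 574, 1042 and 1245 outside the lesion against 2039, 2487 and 2153 (log2 change -1.16 ± 0.29, limma adjusted p = 0.0482). That call was lost without any array except outside-lesion replicate 2 (highest adjusted p = 0.157). Genes beside Apoe were counted because the strain name records DNA of 129 origin at the disrupted gene. Among the 50 protein-coding genes on each side of Apoe in RefSeq order, 28 were tested and Apoc1 was the 1 called. Of all genes 1.68% were called lower. The median log2 change of the neighbours was -0.10. The cholesterol synthesis list, 20 tested genes of its enzymes and of regulators and carriers of sterols, had 0 genes called by limma. At an unadjusted p under 0.05, 8 were lower and 0 higher, by which 13.9% of all probe sets were lower and 8.8% higher. The median was -0.50, with 3 of 20 above 0 (38.3% of all genes were). Of the list's 33 probe sets 1 was called lower, the dimmer of Srebf2 (1.54% of all probe sets were).

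Oxidative phosphorylation, by the respiratory chain and ATP synthase, was the list with the most genes called higher outside the lesion. Of 35 tested, 7 were called higher and 0 lower (20% against 1.4% of all genes higher), 26 were higher at an unadjusted p under 0.05 (8.8% of all probe sets were), 35 of 35 changes were above 0, and the median log2 change was 0.69 against -0.12 over all genes. Cycs, cytochrome c, read 28946, 13140, 23687 and 22429 against 9786, 7924 and 9184 (log2 change 1.25 ± 0.26, limma adjusted p = 0.0271). Uqcrc2, a core subunit of complex III, read 16896, 6804, 15341 and 17391 against 4497, 5333 and 6212 (log2 change 1.32 ± 0.29, adjusted p = 0.0330). The other 5 called members, Ndufb10, Ndufb5, Ndufs3, Sdhc and Atp5b, rose by 0.83 to 1.14 on the log2 scale. In the called probe sets of Cycs and Uqcrc2 outside-lesion replicate 2 was the lowest of its group and still above wild type. The groups overlapped in their other probe sets, and none was called. These changed by 0.63 and 0.69 for Cycs (limma adjusted p = 0.233 and 0.132) and by 0.49 for Uqcrc2 (adjusted p = 0.327).

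Outside-lesion replicate 2 stood apart in all of these pathways. Its mean log2 signal over the oxidative phosphorylation list was 12.41, against 13.27 to 13.35 on the other outside-lesion arrays and 12.28 to 12.55 in wild type. Without it, 27 of the 35 genes were called higher (77.1%) with a median of 0.92, in a fit in which 3.08% of all genes were called higher and 2.64% lower. Without outside-lesion replicate 1, 3 or 4 the count was 2, 2 or 1, and without wild-type replicate 1, 2 or 3 it was 0, 0 or 1, while the medians stayed between 0.60 and 0.74. Under quantile normalization 5 were called with a median of 0.34.

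The same array stood apart in the neighbouring pathways. In the tricarboxylic acid cycle list 1 of 17 genes was called higher, the cytosolic Mdh1 (5.88% against 1.4% of all genes). The median was 0.58 with 17 of 17 above 0. Without outside-lesion replicate 2, 11 of 17 were called higher (64.7% against 3.08% of all genes in that fit). Of 19 fatty acid oxidation genes, Hadhb rose and Cpt1a fell (5.26% each, against 1.4% higher and 1.68% lower of all genes). The list's median was 0.59. Without outside-lesion replicate 2, 11 were called higher (57.9% against the same 3.08%) and 1 lower. Cpt1a, the carnitine palmitoyltransferase that admits fatty acids to mitochondria, read 752, 632, 510 and 584 against 1080, 979 and 1224 in its brightest probe set (log2 change -0.83 ± 0.16, limma adjusted p = 0.0254), whereas its other probe sets, both ending in _x_at, changed by 0.66 and 0.57 and were not called.

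Brown fat genes differed widely between single arrays. Ucp1, the uncoupling protein of brown adipocytes, read 26125, 143, 26624 and 20513 outside the lesion and 1573, 5513 and 20357 in wild type (log2 change 0.26 ± 1.70, limma adjusted p = 0.946). Each group spanned a wide range of Ucp1 signal, and the groups overlapped. The 17 brown adipocyte genes on the array summed to between 10175 and 103333 outside the lesion and between 20410 and 57719 in wild type. By limma 0 of the 16 tested were called (3 higher and 1 lower at an unadjusted p under 0.05), and without outside-lesion replicate 2, 6 of 16 were called higher (37.5% against 3.08% of all genes in that fit) with a median of 1.39 in place of 0.50. Outside-lesion replicate 2 was the lowest of its group in the brown adipocyte list (mean log2 signal 8.03 against 10.68 to 11.05) as in the mitochondrial ones, and wild-type replicate 3 was the highest of its group in both (10.48 and 12.55). The part of brown adipocytes in the mitochondrial differences was not tested.

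In the white adipocyte list 3 of 20 genes were called higher outside the lesion (15% against 1.4% of all genes) and 0 lower. Aqp7, the glycerol channel of adipocytes, read 664, 657, 595 and 574 outside the lesion against 269, 269 and 285 in wild type (log2 change 1.18 ± 0.24, limma adjusted p = 0.0269). Lgals12, a galectin of lipid droplets, read 1304, 1269, 1184 and 1622 against 870, 561 and 502 (log2 change 1.09 ± 0.22, adjusted p = 0.0269). The third called member was Pnpla2, the lipase that starts triglyceride breakdown (log2 change 1.04, adjusted p = 0.0382). Of the 20 changes 19 were above 0 and the median was 0.72. The second probe sets of Lgals12 and Pnpla2 changed by -0.11 and 0.20 with overlapping groups and were not called (adjusted p = 0.791 and 0.700). Adipoq, adiponectin, read 39107, 35535, 29539 and 29506 against 21556, 19437 and 21754 (log2 change 0.67 ± 0.24, adjusted p = 0.132), so its arrays did not overlap although it was not called.

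Non-overlap of the arrays was itself common, at 21.5% of all probe sets (8.13% higher, 13.3% lower). It held for 13 of the 20 white adipocyte genes, all higher. The list's mean log2 signal was 12.34 to 12.64 on the outside-lesion arrays and 11.69 to 11.85 in wild type. The 3 calls went to 0 without outside-lesion replicate 1 or 4 or wild-type replicate 2 or 3 and to 1 without outside-lesion replicate 3 or wild-type replicate 1, while the median stayed between 0.62 and 0.77. Aortas of the Apoe-deficient mice were removed with surrounding fat, and the part of fat in the dissected pieces was not tested.

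**Figure D2:**
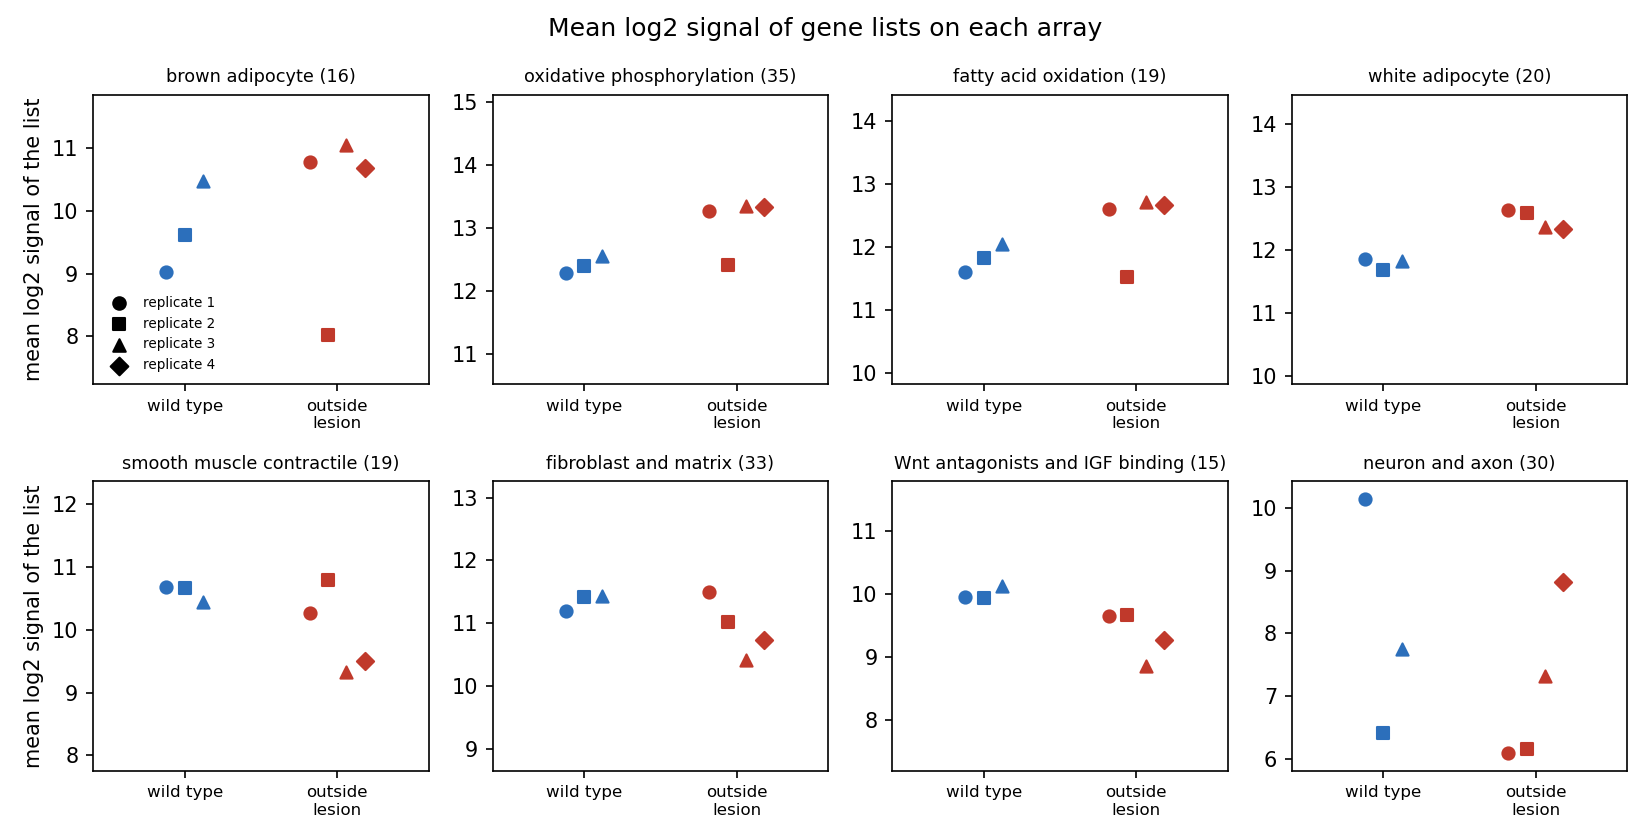
Mean log2 signal of 8 gene lists on each wild-type (blue) and outside-lesion (red) array, with a marker shape per replicate number and the number of tested genes in brackets; all panels span the same height. Outside-lesion replicate 2 (square) lies at 8.03 for brown adipocyte genes against 10.68 to 11.05 on the other outside-lesion arrays, while the white adipocyte means of the groups do not overlap.

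In the fibroblast and matrix list the calls were falls. Pdgfra, the receptor that marks adventitial fibroblasts, read 1516, 1181, 757 and 765 outside the lesion against 1766, 2763 and 3005 in wild type (log2 change -1.28 ± 0.26, limma adjusted p = 0.0275). Lum, lumican, a proteoglycan that orders collagen fibrils, read 1810, 1424, 618 and 1138 against 2098, 2947 and 3047 (log2 change -1.20 ± 0.30, adjusted p = 0.0482). Ogn, osteoglycin, of the same proteoglycan family, fell by 1.09. Of 33 genes these 3 were called lower (9.09% against 1.68% of all genes lower), none was called higher, and the median was -0.53.

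Collagen genes were spread around 0: Col1a1, Col3a1 and Col1a2 changed by 0.57, -0.10 and -0.32, none called, and Dcn, decorin, by -0.17. At an unadjusted p under 0.05, 11 of the 33 genes were lower and 0 higher. With equal array medians 0 of the 33 genes were called by limma and the median was -0.36, and with quantile normalization 6 were called and it was -0.58. The 3 calls went to 0 without outside-lesion replicate 3 or 4 or wild-type replicate 2 or 3, to 1 without wild-type replicate 1, and to 5 without outside-lesion replicate 1.

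Secreted Wnt antagonists and insulin-like growth factor binding proteins formed the list with the largest share of falls, 3 of 15 (20% against 1.68% of all genes), all of them Wnt antagonists. Besides Sost they were Dkk3, a divergent member of the Dickkopf family, and Frzb, a secreted decoy of the Frizzled receptors. Dkk3 read 567, 592, 233 and 392.2 against 1366, 1054 and 1462 (log2 change -1.62 ± 0.33, limma adjusted p = 0.0269). Frzb fell by 1.59. Sfrp2 and Sfrp5, other Frizzled decoys, changed by -1.18 and -1.09 and Sfrp1 by 0.60, none called. The list had 4 calls without outside-lesion replicate 1 or 2, 1 without outside-lesion replicate 3 and 0 without outside-lesion replicate 4 or any wild-type array.

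In the transforming growth factor beta and bone morphogenetic protein list a ligand and its receptor fell. Bmp4 read 307, 287, 309 and 304 outside the lesion against 583, 719 and 797 (log2 change -1.20 ± 0.20, limma adjusted p = 0.0148). Bmpr1a, a type I receptor for it, read 449, 593, 587 and 521 against 1009, 1096 and 1340 (log2 change -1.09 ± 0.17, adjusted p = 0.0119). Its other 4 probe sets changed by -0.53 to -0.17 and were not called. These were the 2 calls among 27 genes (7.41% against 1.68% of all genes lower), whose median was -0.28. Both calls ended without wild-type replicate 2 or 3 (highest adjusted p 0.0640 and 0.0605).

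Smooth muscle genes of the contractile apparatus were below 0 in 19 of 19 cases, with a median of -0.75 and 0 calls by limma (7 lower and 0 higher at an unadjusted p under 0.05). Acta2, smooth muscle actin, read 31669, 33197, 12702 and 14880 against 22158, 19863 and 21869, and Myh11, smooth muscle myosin, read 2903, 6696, 1703 and 2094 against 5494, 4661 and 4453. Outside-lesion replicates 3 and 4 were below every wild-type array in both genes, and replicate 2 was above every one. Without outside-lesion replicate 2, the array highest in this list, 4 of 19 were called lower (21.1% against 2.64% of all genes in that fit). Myh11 changed by -0.75 ± 0.45 and Acta2 by -0.01 ± 0.39 (limma adjusted p = 0.332 and 0.992). A dimmer probe set of Acta2 changed by -1.20 with overlapping groups and was not called (limma adjusted p = 0.16).

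Nerve genes varied more between arrays of a group than between groups. Th, tyrosine hydroxylase of sympathetic neurons, read 69.9, 49.3, 287 and 1368 outside the lesion and 2462, 142 and 470.3 in wild type (log2 change -1.52 ± 1.09, limma adjusted p = 0.422). The 30 tested neuron genes of 44 listed had 0 calls by limma (0 at an unadjusted p under 0.05 too), 0 above 0 and a median of -1.13. Their mean log2 signal was 6.10 to 8.82 outside the lesion and 6.42 to 10.14 in wild type. Without wild-type replicate 1, the array with 10.14, the median was 0.00, and without wild-type replicate 2, the array with 6.42, it was -2.06. Of 17 Schwann cell genes 1 was called lower, Ncam1 (5.88% against 1.68% of all genes). Of 35 neurotrophin and axon guidance genes 1 was called lower (2.86%), the netrin receptor gene Unc5c (log2 change -0.74, limma adjusted p = 0.0453). That call was lost whichever array was left out (highest adjusted p = 0.175).

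Immune genes gave few calls. In the T cell, B cell, plasma cell, macrophage, complement, interferon, neutrophil and mast cell lists and the list of MHC class II and dendritic cell genes, 0 genes were called by limma. At an unadjusted p under 0.05 these lists had 0, 1, 0, 0, 0, 0, 0, 0 and 1 genes higher and 2, 0, 1, 4, 1, 7, 0, 1 and 2 lower, in that order. By that p 8.8% of all probe sets were higher and 13.9% lower. Of 42 macrophage probe sets 1 was called lower by limma (1.54% of all probe sets were). Marco, called lower, is not in the macrophage list, and Zbp1, with 1 probe set called lower, is not in the interferon list. Cd3e, which belongs to the T cell receptor complex, read 119, 180, 24.8 and 29.5 against 42.9, 41.3 and 111, and Cxcl13, the chemokine that draws B cells, 718, 590.0, 1168 and 1004 against 943, 1992 and 1080 (limma adjusted p = 0.779 and 0.211). Their groups overlapped. Interferon response genes, 25 tested, had a median of -0.30 with 3 above 0 (38.3% of all genes were). Arrays did not overlap for 7 of the 25, all lower (13.3% of probe sets in general).

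Single genes of immune signalling and stroma were called nevertheless, most of them lower. Tnfsf13b, the B cell survival factor BAFF, read 261, 263, 202 and 188 against 346, 379 and 409 (log2 change -0.74 ± 0.17, limma adjusted p = 0.0356). Pdpn, podoplanin of lymphatic endothelium and lymphoid stroma, read 980.4, 800, 889 and 1045 against 1410.0, 1886 and 2350 (log2 change -1 ± 0.19, adjusted p = 0.0231). It was the 1 call among 8 lymphatic endothelial genes (12.5% against 1.68% of all genes lower), of which 0 lay above 0. Ccnd1, cyclin D1, and Ddit4, an inhibitor of the growth kinase mTOR that glucocorticoids induce, fell by 0.78 and 1.36. Each was the 1 call of its list, 4.35% of 23 cell cycle genes and 5.56% of 18 glucocorticoid response genes (1.68% of all genes were lower). The dimmer probe sets of Ccnd1 changed by -0.74 and -0.12 and were not called (limma adjusted p = 0.0839 and 0.824). Socs3, which ends cytokine signals, rose by 1.24 as the 1 call among 28 immediate early genes (3.57% against 1.4% of all genes higher). All 5 calls were lost without wild-type replicate 2 or 3 (highest adjusted p between 0.0876 for Pdpn and 0.175 for Ddit4), and all but that of Pdpn also without wild-type replicate 1 or outside-lesion replicate 3 or 4.

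**Figure D3:**
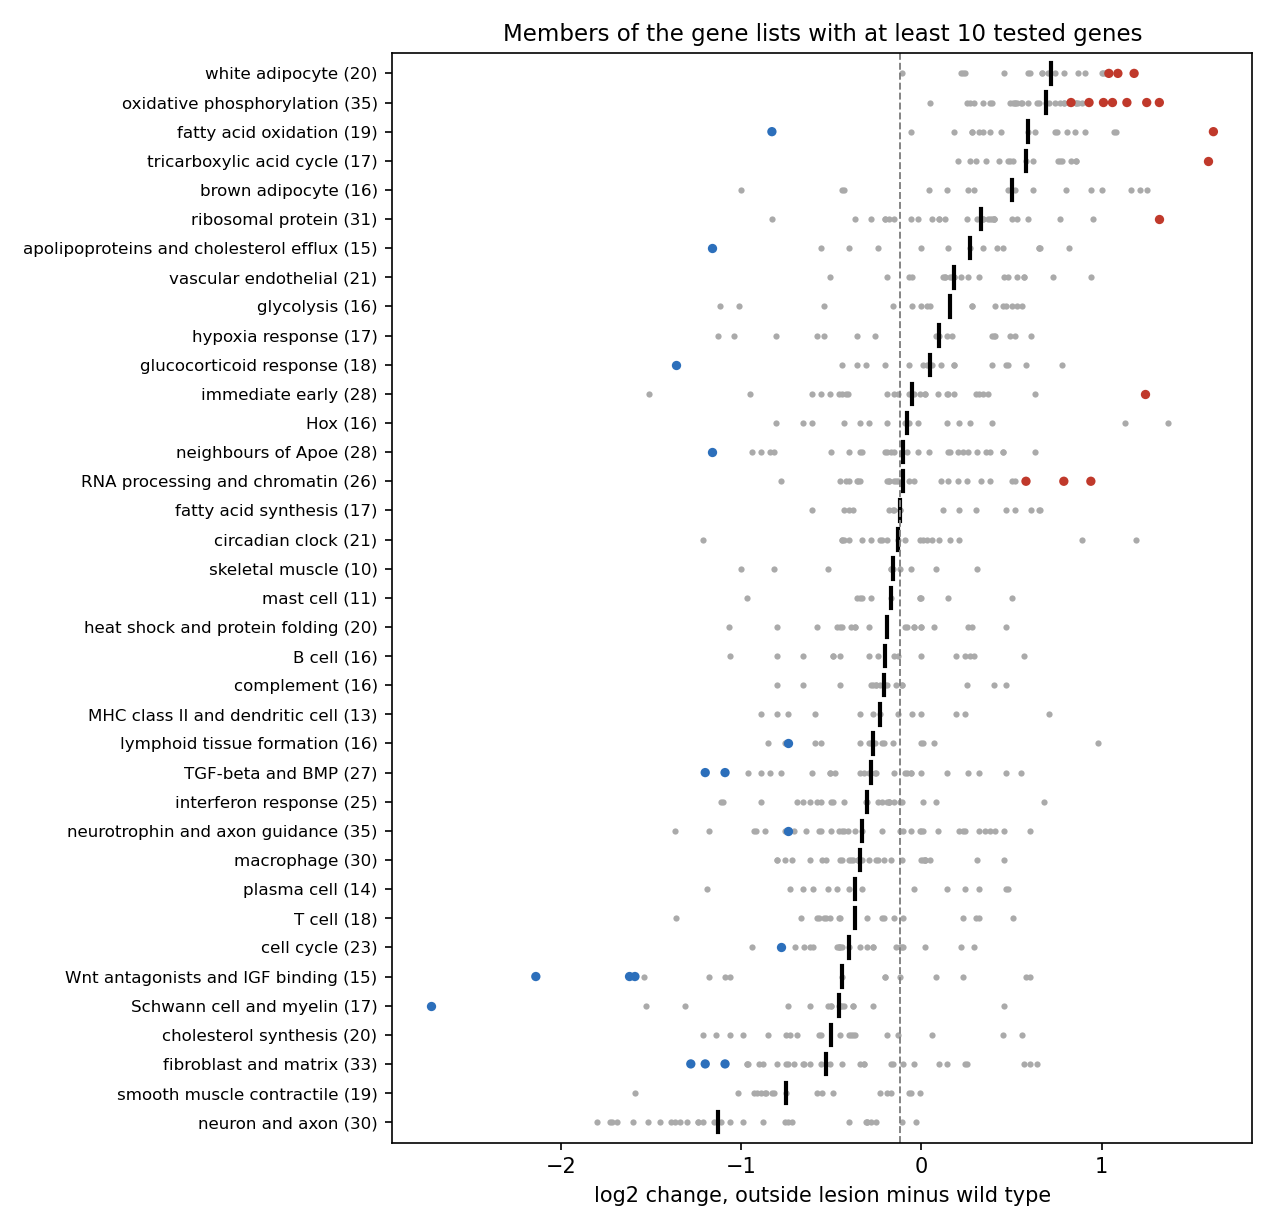
Log2 change of every tested member (outside lesion minus wild type) for the gene lists with at least 10 tested genes, called higher in red, called lower in blue and not called in grey, with the list's median as a black bar and the median of all genes (-0.12) dashed; Apoe, at -7.05, is left off the axis. White adipocyte and oxidative phosphorylation lists have medians of 0.72 and 0.69, and the neuron list, with 0 calls, has the lowest median at -1.13.

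Since amplification time changed with genotype, probe sets of the same gene were compared. Probe sets of one gene can target different transcripts or lie at different distances from the 3′ end. At least 2 probe sets were tested for 3157 genes, 7853 probe sets in all. Of these genes 151 had a probe set called higher (4.78%) and 120 one called lower (3.8%), and 0 had calls in both directions. Every probe set was called in 7 genes (0.222%). Among genes called higher, every probe set was above 0 in 81 (53.6%), and among genes called lower, every probe set was below 0 in 93 (77.5%). The uncalled partners of higher genes had a median log2 change of 0.17 (183 of 283 above 0), and those of lower genes one of -0.39 (169 of 204 below 0). Of all tested probe sets 39.1% were above 0, with a median of -0.11. Agreement below 0 was thus favoured in advance, and the 2 directions cannot be compared directly.

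In 7 genes all probe sets were called, and 5 of them fell. Enah, an actin regulator at cell edges, read 595, 600.3, 425 and 387 outside the lesion against 1734, 1692 and 1505 in wild type (log2 change -1.74 ± 0.23, limma adjusted p = 0.00377), and its second probe set fell by 1.47 (adjusted p = 0.00336). Both held whichever array was left out. Ptprz1, a receptor tyrosine phosphatase of glia, fell by 1.73 and 2.37, Rnd3, an atypical small GTPase that relaxes the actin skeleton, by 1.27 and 1.72, Tes, a focal adhesion protein, by 0.93 and 1.26, and Aprt, of adenine salvage, by 0.67 and 0.58. The 2 that rose detoxify. Cat, catalase, read 18706, 14591, 13377 and 12824 against 6005, 6850.4 and 8062 (log2 change 1.09 ± 0.20, adjusted p = 0.0220), with its second probe set at 0.78 (adjusted p = 0.0306). Gsto1, a glutathione transferase, rose by 0.94 and 0.72 (adjusted p = 0.0165 and 0.0195).

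Leaving out wild-type replicate 2 or 3 ended at least 1 call in 6 of these 7 genes, all but Enah. The count of 7 was 5, 56, 2 and 2 without outside-lesion replicate 1, 2, 3 or 4 and 1 without wild-type replicate 1, 2 or 3, and it was 22 with equal array medians. A looser count, every probe set at an unadjusted p under 0.05 and in one direction with at least 1 called, held for 27 genes higher and 37 lower. Those higher included Rgcc, Atp5a1, Cox5a and Zfp503, and those lower Dkk3, Ncam1, Ogn, Pdgfra, Nox4 and Vcan; these examples were chosen after their values were seen.

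Many other genes had probe sets that moved apart. Across genes, the changes of the 2 brightest probe sets correlated at 0.428 (Pearson; Spearman 0.389; n = 3157 pairs that share the same 7 arrays). In 153 genes (4.85%) the change differed between them by limma, and in 114 of the 153 the changes had opposite signs. The largest difference was in 2610507B11Rik, with 822.5, 690.3, 504.2 and 513.1 outside the lesion against 82.4, 75.2 and 55.5 in one probe set (log2 change 3.14 ± 0.26, limma adjusted p = 0.000118) and 1942, 1732, 2324 and 2281 against 1906, 2716 and 2059 in the brighter one (-0.10 ± 0.20, adjusted p = 0.799). Thus the dimmer probe set separated the groups and the brighter one did not.

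Baz2a, a subunit of the complex that silences ribosomal RNA genes, showed the same form, 299.5, 296.6, 288.2 and 197.2 against 58.7, 30.6 and 25.9 in one probe set (log2 change 2.68 ± 0.31, limma adjusted p = 0.00254) and a change of 0.24 ± 0.15 in the brighter one. Both dimmer probe sets kept their calls whichever array was left out. Map3k12, a kinase of axon stress signalling, changed by 1.24 and -0.57, Tapbp, tapasin, which loads MHC class I, by 0.66 and -1.17, Hoxb4 by 1.13 and -0.87 and Mfsd6 by -0.71 and 1.19 (brighter probe set first). Emb, embigin, an adhesion protein that escorts monocarboxylate transporters, changed by -0.62 in its brighter and -2.37 in its dimmer probe set. Zbp1, a sensor of Z-form nucleic acids, changed by 0.21 in one, and was at least 3.26-fold lower in the other, in which the outside-lesion group lay at the floor throughout. The count of 153 pairs was 22, 79, 94 and 58 without outside-lesion replicate 1, 2, 3 or 4 and 70, 1 and 1 without wild-type replicate 1, 2 or 3.

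**Figure D4:**
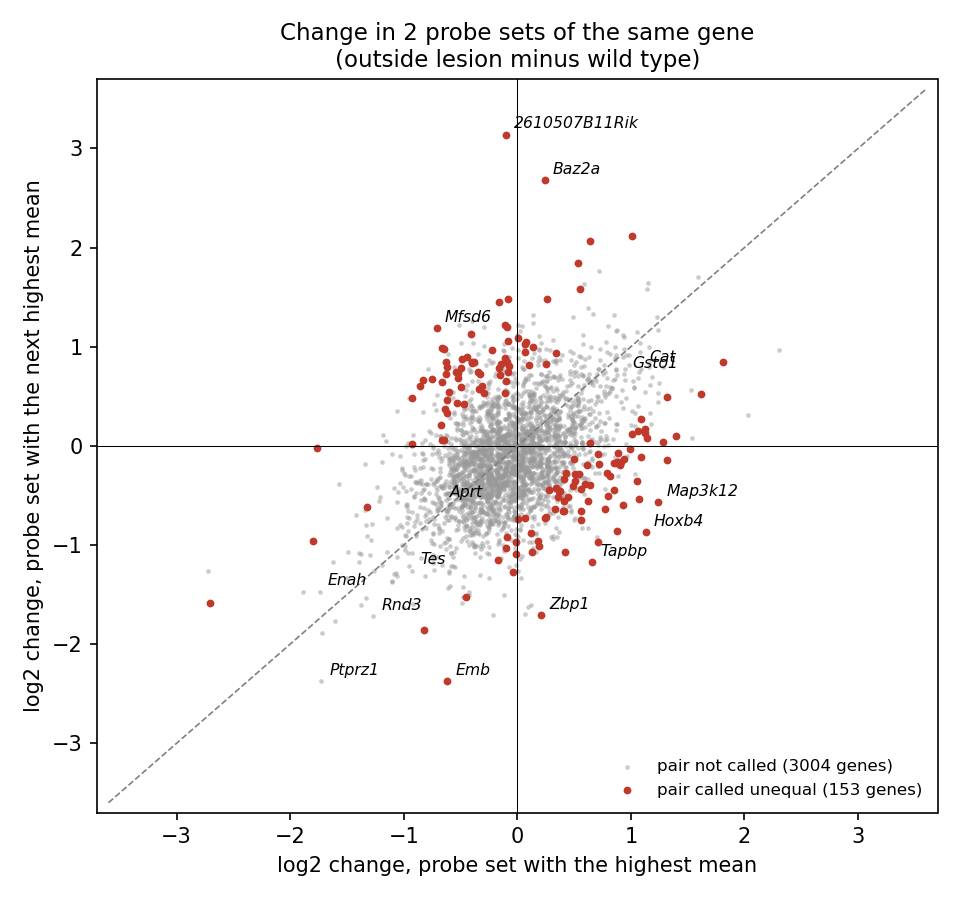
Log2 change (outside lesion minus wild type) of the brightest (x axis) and next brightest (y axis) tested probe set of each of 3157 genes, with the 153 genes whose 2 changes differed by limma in red, equality dashed, and names for the 7 genes with every probe set called and the 8 with the largest differences. 2610507B11Rik and Baz2a lie near 0 on the x axis and above 2.6 on the y axis, while Enah, Ptprz1, Rnd3 and Tes lie low on both.

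The direction of the calls went with the kind of probe set. On this array a name ending in _x_at marks probe sets in which some probes also match unrelated sequences, _s_at those whose probes match transcripts of several genes and _a_at those that match several transcripts of one gene. Of 1185 tested _x_at probe sets 80 were called higher (6.75%) and 13 lower (1.10%), while of 9737 plain _at probe sets 90 were called higher (0.924%) and 165 lower (1.69%). Among _a_at and _s_at probe sets 2.1% and 2.33% were called higher. Of all 13803 probe sets other than _x_at, 1.29% were called higher and 1.58% lower. The _x_at kind made up 7.91% of tested probe sets and 31.0% of those called higher. With _x_at probe sets left out of the fit 158 probe sets were called higher and 185 lower, an alternative chosen after seeing the data. The count of 80 was 116 without outside-lesion replicate 2, 39, 42 and 25 without outside-lesion replicate 1, 3 or 4, 32 without wild-type replicate 1 and 8 without wild-type replicate 2 or 3, and it was 141 with equal array medians.

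Within genes the picture was the same. In 656 genes with both kinds, the _x_at probe set changed more towards higher than the other in 55 (8.38%) and less in 17 (2.59%) by limma, with a median difference of 0.13 and 61.1% above 0. Of 39 genes whose _x_at probe set was called higher, the other was called higher in 3, and the medians were 1.04 for the _x_at and 0.22 for the other.

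Several of the rises described above rest on this kind. Mdh1 rose by 1.59 and 1.70 in its _x_at probe sets and changed by 0.20 and -0.70 in its 2 others. Hadhb rose by 1.62 in _x_at and changed by 0.52 in the other, Aqp7 by 1.18 and 0.22, and Socs3 by 1.24 in the called _x_at and -0.42 in the plain one. Rps9, a protein of the small ribosomal subunit and the 1 call among 31 ribosomal protein genes, rose by 1.32 in _x_at (11472, 10310.0, 6744 and 8106 against 4296, 3483 and 3073) and changed by -0.14 and -0.26 in the others. That 1 call was 3.23% of the ribosomal list, against 1.4% of all genes higher. The list had a median of 0.33, which was -0.16 under quantile normalization. The probe set with Igkv8-30 as its only symbol ends in _x_at. Others that list Igkv8-30 among several symbols, also _x_at, changed by 1.59, 1.54 and 1.92. Of these the last was called (limma adjusted p = 0.0528, 0.0545 and 0.0269). Rgcc, Atp5md, Slc25a26, Gga1, Ptpn23, Myo5c, Mapre3, Ubxn1 and Zfp503 were called in probe sets of other kinds.

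Of 26 genes of RNA processing and chromatin 3 were called higher (11.5% against 1.4% of all genes), with a median of -0.10, and none lower. Ddx5, an RNA helicase of splicing, rose in 2 _x_at probe sets by 0.94 and 0.62 and changed by -0.39 to -0.11 in 4 others, of which 1 is also _x_at. Hnrnpa2b1, a splicing repressor, rose by 0.79 in one _a_at probe set (3912, 4140.2, 4653 and 3776 against 3152, 2388 and 1799) and changed by -0.27 in another of that kind (3147, 2579, 3625 and 2978 against 3354, 3521 and 4260). The groups were apart in the first and overlapped in the second, and its _x_at and plain probe sets changed by 1.55 and 0.41, not called. Son, a splicing cofactor, rose by 0.58. The count of genes called higher was 1 without outside-lesion replicate 1, 3 or 4 and 0 without wild-type replicate 2 or 3, and without the last of these 1 gene was called lower.

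**Figure D5:**
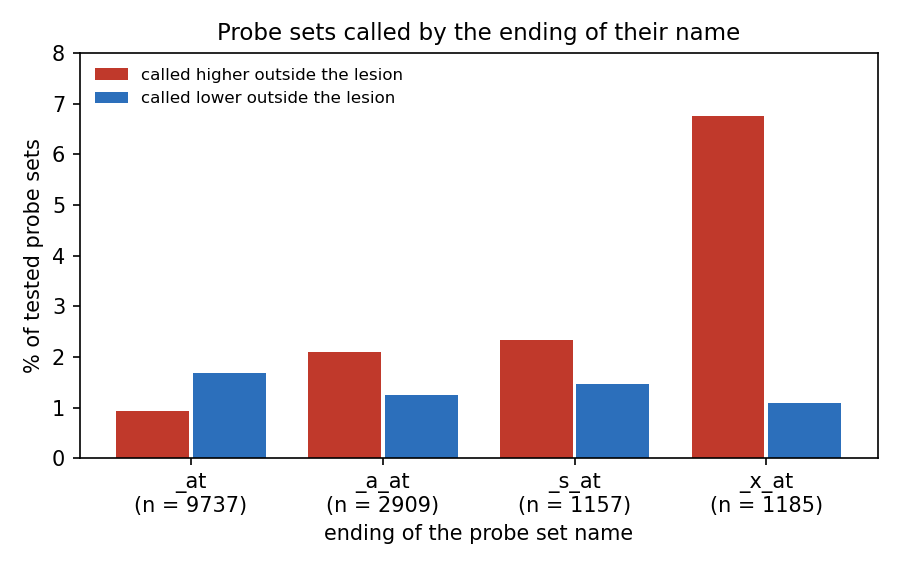
Percent of tested probe sets called higher (red) or lower (blue) outside the lesion, by the ending of the probe set name, with the number tested under each. The _x_at group has 6.75% higher against 1.10% lower, and the plain _at group 0.924% higher against 1.69% lower.

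Control transcripts differed between the groups as well. All 18 hybridisation controls, which are added to the labelled sample, were higher on every outside-lesion than on every wild-type array, by 2.67 to 7.26 times, and so were all 24 poly-A spike-in controls, by 3.57 to 12.6 times (exact two-sided permutation p = 0.0286 for the mean of each set, the smallest that 35 splits allow). In the ratio of 3′ to 5′ signal, which rises when RNA is degraded or copied short, the spike-ins lay lower outside the lesion: dap had 2.87 ± 0.799 (SD, n = 4) against 6.90 ± 0.945 (SD, n = 3), phe 2.03 ± 0.602 against 7.01 ± 2.49 and lys 1.73 ± 0.184 against 2.76 ± 0.122, each with an exact permutation p = 0.0286 (adjusted 0.0667 over 7 controls). The mouse transcripts went the other way, with actin at 8.71 ± 2.83 against 4.98 ± 0.683 (exact permutation p = 0.0857, adjusted 0.12), Gapdh at 1.74 against 1.20 (adjusted 0.133) and pyruvate carboxylase at 68.4 against 30.4 (adjusted 0.0999). The thr spike-in had 3.64 against 4.15 (adjusted 0.600). No control passed the adjusted threshold. With the log2 actin ratio as a covariate 86 probe sets and 3 pairs were called in place of 489 and 153; the part of amplification and RNA quality in single calls was not tested.

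The other Apoe-deficient group, ATLO adventitia, went through the same 68 h amplification, and its changes against wild type rest on the same 3 wild-type arrays, so the values are only set side by side. For probe sets named above that held whichever array was left out, the log2 change outside the lesion and in ATLO was 3.14 and 2.39 for 2610507B11Rik, 2.68 and 2.62 for Baz2a, 3.46 and 3.21 for Igkv8-30 and -1.74 and -1.69 for Enah. Ubxn1 had 1.47 and 0.81. Rgcc had 1.81 and 0.34 and the brighter Mdh1 probe set 1.59 and 0.47. A white adipocyte and a mitochondrial gene had changes of opposite sign: Aqp7 had 1.18 and -1.11, Cycs 1.25 and -0.89. Against wild type 26.8% of probe sets were called in ATLO. The hybridisation controls averaged 1772 to 15063 on the ATLO arrays, against 2235 to 2959 in wild type and 8599 to 26485 outside the lesion. For the poly-A spike-in controls the ranges were 186 to 1072, 151 to 373 and 979 to 1765. In both sets the ATLO range overlapped those of both other groups.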

How the data were processed

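RNA of abdominal aortic adventitia from mice was hybridised to 11 Affymetrix arrays. The deposited table holds a linear signal intensity for each probe set, made by the authors with GCOS 1.4 per the submitters' processing notes and scaled so that each array had a 2% trimmed mean of about 500.2; the summary method, probe sequences and detection calls were not used here or are not given in the sources used here. Of 22690 probe sets 64 controls were left out. In the platform annotation 20380 of the other 22626 had 1 gene symbol, 691 several and 1555 none, and only those with 1 were named. No coordinates are given, because no build is named; the neighbours of Apoe come from gene order in RefSeq's GRCm38.p6 table. Arrays give no counts, so their number limits the precision.

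Signals under 35.1, the 20th percentile, were set to that floor and taken to log2, and probe sets above their array's 40th percentile on at least 3 arrays were tested (14988). A probe set low in a group could therefore be tested through the other groups alone, as were those of Prkcz and Zbp1 called lower. limma 3.58.1 in R 4.3.3 was fitted to all 11 arrays with a mean per group and an intensity trend, with Benjamini-Hochberg adjustment and a threshold of 0.05. Log2 errors are standard errors from limma, and folds near the floor are understated. Pairs were tested with limma on per-array differences of the 2 brightest probe sets of a gene. Control ratios were tested by exact two-sided permutation. The fits were tested on simulated data.

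Genes were named by rule: the 12 largest rises and falls among called genes whose arrays do not overlap and whose higher group exceeds a signal of 108.4, the 2 largest calls of each of 41 gene lists and of the neighbours, the 8 largest pair differences, the genes with every probe set called (up to 10), and Apoe, Apoc1, Ucp1, Adipoq, Acta2, Myh11, Cxcl13, Cd3e and Th; a further gene of this rule is not reported here. Other list members are examples named after their values were seen. The comparison, members and lists were chosen with earlier results of these data known. Replicate numbers are shared between groups, but same-numbered outside-lesion and wild-type arrays did not deviate together (correlations -0.178, 0.121 and 0.0211 for numbers 1 to 3). No pairing was assumed, and pairing of ATLO with outside-lesion arrays was not examined. Alternatives were other scalings, floors, filters and variance settings, the replicate block, the actin ratio as a covariate, the mean of a gene's probe sets, and each array left out. Leaving out _x_at probe sets was added after the data were seen.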

Additional observations from a re-analysis of the deposited data

Results flagged for a closer look

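In the 4 outside-lesion arrays, a value was singled out where 1 array stood away from the other 3 by a larger share of the group's whole range than Dixon's 95% limit allows. Chance singles out about 1 in 20 groups, and 118 probe sets, 42 lists and 7 control ratios were examined, of which 9, 5 and 1 were singled out. The wild-type group has 3 arrays and was not examined this way.

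Outside-lesion replicate 2 was low in mitochondrial and brown fat genes. Its Ucp1 signal was 143.4 against 20513 or more on the other outside-lesion arrays, its Hadhb signal in the plain _at probe set 6302.3 against 14283 or more, and its Uqcrc2 signal in the called probe set 6803.8 against 15341 or more. The mean log2 signal of that array was 8.03 for the brown adipocyte list, 12.41 for oxidative phosphorylation, 11.79 for the tricarboxylic acid cycle and 11.52 for fatty acid oxidation, against at least 10.68, 13.27, 12.72 and 12.60 on the other outside-lesion arrays.

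Outside-lesion replicate 4 stood apart in 5 cases. Its signal was low at 197.2 in the called Baz2a probe set (the others 288 to 300) and at 63.3 for Gga1 (the others 241 to 293), and high at 142.9 in the called Emb probe set, where the others were at the floor, and at 16062.5 in the brighter _x_at probe set of Mdh1 (the others 13834 to 14064). Its mean over the neurotrophin and axon guidance list was 7.98, and the others had 8.10 to 8.11. Outside-lesion replicate 1 was high at 395.8 in the plain Aqp7 probe set (the others 233 to 252) and at 19755.7 in the called Rgcc probe set (the others 15227 to 15856). In outside-lesion replicate 3 the 3′ to 5′ ratio of the dap spike-in was 4.07, and on the others it was 2.42 to 2.55.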

How the results depend on the processing

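Counts are given as probe sets called (higher and lower), pairs called and genes with every probe set called, for which the reported values are 489 (258 and 231), 153 and 7. Quantile normalization lowered the falls to 149, and equal array medians gave 557 higher, 81 lower and 22 genes. Genes with every probe set called were 12 with a floor of 100 and 11 with the filter at the 60th percentile. No filter gave 301 (150 and 151) and 4 genes, and only the 7 compared arrays 202 (130 and 72), 70 pairs and 3 genes. Array weights gave 1530 (703 and 827), 308 pairs and 73 genes. Without an intensity trend there were 248 (142 and 106) and 4 genes. Testing against 1.5-fold left 5 (4 and 1) and 0 genes, namely Apoe, 2610507B11Rik, Baz2a, Igkv8-30 and an _x_at probe set of Atp5o. The actin ratio as a covariate gave 86 (51 and 35), 3 pairs and 1 gene. Averaging the probe sets of each gene gave 165 genes (66 higher and 99 lower) in place of 279 (127 and 152). Without _x_at probe sets, a setting chosen after seeing the data, 158 were higher and 98 pairs were called. Fewer arrays or more probe sets tested can lower the counts, but leaving out outside-lesion replicate 2 raised the calls to 886. The cause of the shifts was not tested.

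Leaving out each array in turn gave 21 to 886 calls, 15 to 506 higher and 6 to 380 lower, 1 to 94 pairs and 1 to 56 genes with every probe set called. Of 66 called probe sets of named genes, 10 kept their call in all 7 of these fits. Over all 14988 probe sets, 14 did: besides Apoe, both of Enah, both _x_at ones of Mdh1, and those of 2610507B11Rik, Baz2a, Igkv8-30, Rgcc and Ubxn1 these were Foxo3, Atp5o and Dbi (named after their values were seen) and 1 without a gene name.

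With the replicate number as a block, 189 (113 and 76), 89 pairs and 4 genes were called over 11 arrays, and 5 (4 and 1), 1 pair and 0 genes over the 7 compared arrays, where Apoe, Igkv8-30 and 2610507B11Rik were the named ones kept. Same-numbered outside-lesion and wild-type arrays correlated at -0.178, 0.121 and 0.0211 in their deviations. Same-numbered ATLO and outside-lesion arrays were not compared in this way. Whether the block is warranted over the 11 arrays was therefore not tested. No called probe set of a named gene changed sign in any alternative. The pair test has no intensity trend and no 1.5-fold form, so these settings were not run for it. The number of arrays, 4 and 3, limits the precision, and signals near the floor give understated folds.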

Other observations

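Single wild-type arrays stood apart in other gene groups. In wild-type replicate 2 the mean log2 signal of B cell genes was 9.19, against 7.19 and 7.42 on the other wild-type arrays and 7.22 to 8.12 outside the lesion, and that of cell cycle genes was 8.69, against 7.47 and 7.54 and 7.18 to 7.89. In wild-type replicate 3 heat shock and protein folding genes had 11.35, against 10.38 and 10.53 and 10.38 to 10.66. Vascular endothelial genes, 21 tested, had a median log2 change of 0.18 with 17 above 0 and 0 calls by limma (6 higher and 0 lower at an unadjusted p under 0.05). Circadian clock, hypoxia, glycolysis, Hox and fatty acid synthesis genes had 0 calls and medians from -0.13 to 0.16 (1, 4, 3, 2 and 0 higher and 1, 3, 2, 2 and 0 lower at that p, in this order), and neurotransmitter receptor genes, 9 tested, 0 calls and a median of -0.53 (0 higher and 3 lower). These counts take the brightest probe set of each gene. Of all 33 circadian clock probe sets 1 was called lower, and of all 30 glycolysis probe sets 1 was called higher (1.54% and 1.72% of all probe sets were). Skeletal muscle, mesothelial and epithelial, and erythroid genes had 10, 5 and 2 tested members, with 0 calls and 0 at an unadjusted p under 0.05. Of 16 tested lymphoid tissue formation genes Tnfsf13b was the 1 called (6.25% against 1.68% of all genes lower), and the list's median was -0.27.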
